A study of Mus musculus with 3 samples.

Results

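Expression of 9 genes that mark megakaryocytes and platelets, Pf4, Ppbp, Itga2b, Itgb3, Gp1ba, Gp1bb, Gp5, Gp9 and Vwf, was examined among 16072 named genes measured by RNA-seq in bone marrow (BM) cells. The genes were chosen by name with their FPKM values in the 3 libraries described here already known, so every difference between the groups is given as a description, with no test. All cells were labelled Ly6G+ myeloid cells and came from C57BL/6 mice aged 6 to 10 weeks that carried B16.F10 melanoma cells under the skin from 1 week before the vector. The 2 AAV-Ctrl libraries are from mice given the control adeno-associated virus (AAV) vector into the muscle, and the 1 AAV-IL-27 library is from a mouse given a vector that makes p28 and EBI3, the subunits of mouse IL-27, under the ubiquitous CAG promoter. Cells were taken 3 weeks after the vector. The tumour comes from the series' design text and is not mentioned in the source of that time point, and the sources also differ on the number of mice. The labels speak of 4 mice but list 3 libraries. The purity of the cells is not given in the sources used here.

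Megakaryocytes are the large, polyploid cells of the BM that shed platelets into the blood. They load alpha-granules with proteins that are released when platelets are activated, among them the chemokines platelet factor 4 (Pf4) and pro-platelet basic protein (Ppbp). Platelets stick to injured vessel walls through the GPIb-IX-V complex, whose ligand is von Willebrand factor (Vwf), and to each other through the integrin of Itga2b and Itgb3, which binds fibrinogen. A sample of granulocytes from the BM can hold RNA of megakaryocytes, of platelets attached to granulocytes, or of both.

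Gene positions are those of GENCODE M21 on GRCm38, the assembly that the submitters' notes name as mm10. Ppbp (NCBI Gene 57349) and Pf4 (56744) lie next to each other on the plus strand of chromosome 5, from 90768518 to 90770063 and from 90772435 to 90773383, with 2372 bases between them. Itga2b (16399, minus strand, 102453297 to 102470122), Itgb3 (16416, plus strand, 104608000 to 104670476) and Gp1ba (14723, plus strand, 70639122 to 70642036) are on chromosome 11. Gp1bb (14724, 18620317 to 18622403) and Gp5 (14729, 30307685 to 30310779) are on the minus strand of chromosome 16. Gp9 (54368, 87778072 to 87779768) and Vwf (22371, 125546774 to 125686679) are on the plus strand of chromosome 6. Of these genes, only Gp1bb overlapped the exons of another gene measured here, Sept5.

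The 250 bases before the RefSeq start (GRCm38.p6) were searched for 2 kinds of short motif that megakaryocyte promoters are known for, on both strands. The GATA motif was AGATAA or AGATAG or TGATAA or TGATAG, and the ETS motif was AGGAAG or CGGAAG. A window was at hand for 7 of the 9 genes, Itgb3 and Vwf excepted. That of Itga2b (chr11:102469884-102470133) lies mostly inside the GENCODE span given above, since its RefSeq start is further downstream. The GATA motif was present in 3 of the 7 (Gp1ba, Gp1bb and Gp5) and the ETS motif in 6 (all but Ppbp), against 26.5% and 39.2% of 32851 RefSeq windows of the same length. Both motifs were present in 3 of the 7 windows, against 9.21% of all windows. These matches are descriptions of letters and were not tested as binding sites. Below are 4 of the windows, each 5′ to 3′ on the strand of the gene, with the motifs in capitals. Gp5 (chr16:30310782-30311031, minus strand) and Gp1ba (chr11:70638872-70639121, plus strand) are shown because both hold 3 GATA matches and 1 ETS match. Their AAV-IL-27 values were 11.6% and 76.1% of the AAV-Ctrl mean, and a link between motifs and values was not tested.
Gp5: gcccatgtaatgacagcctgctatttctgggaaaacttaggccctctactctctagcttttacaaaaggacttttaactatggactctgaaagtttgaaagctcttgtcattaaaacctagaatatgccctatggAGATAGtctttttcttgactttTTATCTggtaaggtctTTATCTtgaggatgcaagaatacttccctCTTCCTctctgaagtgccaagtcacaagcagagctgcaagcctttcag
Gp1ba: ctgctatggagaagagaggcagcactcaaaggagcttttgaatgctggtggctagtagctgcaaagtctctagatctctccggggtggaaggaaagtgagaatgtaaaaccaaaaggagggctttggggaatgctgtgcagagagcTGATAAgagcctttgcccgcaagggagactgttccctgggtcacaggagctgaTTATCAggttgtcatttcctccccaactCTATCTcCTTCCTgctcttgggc
Pf4 (chr5:90772185-90772434, plus strand) and Ppbp (chr5:90768268-90768517, plus strand) are shown because these neighbours had the most reduced values of the 9 genes on the log2 scale. Their windows hold no GATA match and, for Ppbp, no ETS match.
Pf4: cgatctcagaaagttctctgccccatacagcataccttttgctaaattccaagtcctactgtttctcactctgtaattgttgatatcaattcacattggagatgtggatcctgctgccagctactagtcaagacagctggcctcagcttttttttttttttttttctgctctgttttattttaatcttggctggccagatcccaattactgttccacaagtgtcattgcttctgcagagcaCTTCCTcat
Ppbp: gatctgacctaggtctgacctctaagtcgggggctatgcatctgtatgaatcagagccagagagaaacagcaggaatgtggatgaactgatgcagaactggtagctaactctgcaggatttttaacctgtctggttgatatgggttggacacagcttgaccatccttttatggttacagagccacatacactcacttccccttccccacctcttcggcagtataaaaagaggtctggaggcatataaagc

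The deposited values are FPKM, fragment numbers scaled by transcript length and by the total mapped in the library. Values given in threes are in the order AAV-Ctrl 1, then AAV-Ctrl 2, then AAV-IL-27. The depth, estimated from the steps between low values, was about 18750000, 18950000 and 18750000 fragments. The label was checked on 17 neutrophil genes, which were present in every library, summed to between 177848 and 188024 FPKM and were led by S100a9 (73508.41, 71786.08 and 68764.99 FPKM). Ly6g itself, the antigen of the label, was at 711.76, 766.11 and 586.29 FPKM. A log2 difference is log2(FPKM + 1) in AAV-IL-27 less the average of that quantity in both controls. The added 1 shrinks differences of weakly expressed genes. A gene is called lower when its AAV-IL-27 value lies at least 1 log2 unit below each AAV-Ctrl library and its mean FPKM over the 3 libraries is at least 1.

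For all 9 genes the AAV-IL-27 value was the lowest of the 3, against 41.9% of the 9130 genes whose mean FPKM was 1 or more. The value kept in AAV-IL-27 ranged from 10.2% of the AAV-Ctrl mean for Ppbp to 89.4% for Itgb3. In bulk RNA, fewer megakaryocytes or platelets in the sample and less of these transcripts in each cell cannot be told apart. The median difference over all 9 genes was -1.15, and over the 9130 genes it was -0.01. A mean FPKM of at least 1 was reached by 8 of the 9, Vwf excepted, and 4 were called lower (Ppbp, Pf4, Itga2b and Gp5). Of the 9130 genes, 2.32% were called lower and 0.307% were called higher. Since these same values chose the 9 genes, nothing is read from that count. With AAV-Ctrl 1 in the place of the AAV-IL-27 library, 3 of the 9130 genes were called lower and 0 higher. With AAV-Ctrl 2 in its place, 1 was called lower and 3 higher. AAV-IL-27 then serves as a reference, so a gene lowest in AAV-IL-27 could not be called lower. These counts are therefore no estimate of how often a control would give such calls.

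**Figure D1:**
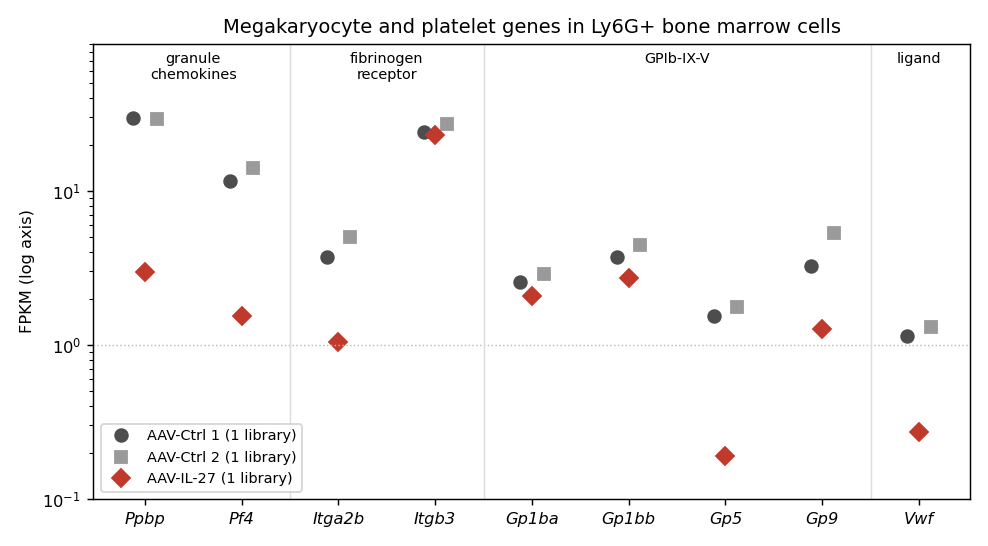
FPKM (log axis) of the 9 genes, ordered by role, in each of the 3 libraries, 1 point per library and no error bars. The AAV-IL-27 point (red diamond) is the lowest of the 3 for each gene, by a wide gap for Ppbp, Pf4, Itga2b, Gp5 and Vwf and by a narrow gap for Itgb3, Gp1ba and Gp1bb (dotted line, 1 FPKM).

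On the log2(FPKM + 1) scale, the granule chemokines had the largest differences of the 9 genes. Ppbp, the precursor of the neutrophil-attracting chemokine NAP-2, was at 29.58, 29.14 and 2.99 FPKM. The AAV-Ctrl libraries hardly differed and the AAV-IL-27 library was at 10.2% of their mean of 29.4 ± 0.311 (SD, n = 2), a log2 difference of -2.93. Ranked by the fall below the lower AAV-Ctrl library among the 9130 genes, Ppbp stood at 2. Pf4, a chemokine that binds heparin and is used as a marker of the megakaryocyte lineage, was at 11.67, 14.02 and 1.53 FPKM. The last is 11.9% of the AAV-Ctrl mean (12.8 ± 1.66, SD, n = 2) and a log2 difference of -2.45, at rank 23. Pf4 is a short transcript of 588 bases, and its values stand for an estimated 118, 143 and 15 fragments, with 95% exact Poisson intervals of 97.7 to 141, 121 to 168 and 8.4 to 24.7. The AAV-IL-27 interval did not reach those of the AAV-Ctrl libraries. These intervals cover counting error only and take the depth and transcript length as known.

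Ppbp was the more abundant of the pair by a similar factor in every library, at 2.53, 2.08 and 1.95 times Pf4 per length. Of 5 other CXC chemokine genes of the same stretch of chromosome 5, Cxcl2 and Cxcl3 had their highest value in AAV-IL-27. Cxcl2, a chemokine that activated myeloid cells make, was at 7.98, 9.38 and 15.62 FPKM but was not called higher (log2 difference 0.78). Cxcl3 was at 0.17, 0.22 and 0.55 FPKM. Cxcl1 was listed at 0 in each library, and Cxcl5 and Cxcl15 did not exceed 0.03 FPKM in any.

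The subunits of the fibrinogen receptor separated. Itga2b encodes integrin alphaIIb (CD41), which is largely confined to the megakaryocyte lineage and early progenitors, and was at 3.71, 5.05 and 1.05 FPKM. The AAV-IL-27 value was 24% of the AAV-Ctrl mean (4.38 ± 0.948, SD, n = 2), with a log2 difference of -1.38 and of -1.20 from the lower AAV-Ctrl library. In fragments this is an estimated 236, 324 and 67, with intervals of 207 to 268, 290 to 361 and 51.9 to 85.1, so the AAV-Ctrl libraries also differed from each other beyond counting error. Itgb3 encodes integrin beta3 (CD61), which pairs with alphaIIb in platelets and with the alphav subunit in many other cells. It was at 24.17, 27.13 and 22.93 FPKM, or 89.4% of the AAV-Ctrl mean (25.6 ± 2.09, SD, n = 2), a log2 difference of -0.15. AAV-Ctrl 1 and AAV-Ctrl 2 differed by 0.16, which is of the same size. The fragment intervals of Itgb3 were 2500 to 2701, 2843 to 3056 and 2369 to 2564. Here too the AAV-Ctrl libraries differed beyond counting error, and AAV-IL-27 overlapped AAV-Ctrl 1. Per length, Itgb3 stood at 6.51 and 5.37 times Itga2b in the AAV-Ctrl libraries and at 21.8 times in AAV-IL-27. Against Itgav, the gene of the alphav subunit (5.42, 5.22 and 5.61 FPKM), the ratio of Itgb3 was 4.46, 5.2 and 4.09.

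The GPIb-IX-V complex is made of GPIb-alpha (Gp1ba), which holds the binding site for von Willebrand factor, GPIb-beta (Gp1bb), GPIX (Gp9) and the more loosely attached GPV (Gp5), and the 4 genes did not move alike. Gp5 was at 1.53, 1.76 and 0.19 FPKM. Its AAV-IL-27 value was 11.6% of the AAV-Ctrl mean (1.65 ± 0.163, SD, n = 2), close to the share seen for Pf4 and Ppbp, with a log2 difference of -1.15. The estimated fragments were 62, 72 and 8, with intervals of 47.5 to 79.5, 56.3 to 90.7 and 3.45 to 15.8. That of the 1 AAV-IL-27 library lay below both others, for counting error only. Gp9 was at 3.25, 5.30 and 1.27 FPKM, which puts AAV-IL-27 at 29.7% of the AAV-Ctrl mean (4.28 ± 1.45, SD, n = 2). The log2 difference was -1.19, and the AAV-Ctrl libraries themselves were 0.57 apart on that scale. The estimated fragments were 51, 83 and 20, and the interval of AAV-IL-27 (12.2 to 30.9) lay below those of AAV-Ctrl 1 (38 to 67.1) and AAV-Ctrl 2 (66.1 to 103). AAV-IL-27 lay 0.90 log2 units below AAV-Ctrl 1, and the gene was called lower only when AAV-Ctrl 1 was left out or under 4 other settings named in the closing section.

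Gp1ba was at 2.55, 2.89 and 2.07 FPKM, or 76.1% of the AAV-Ctrl mean (2.72 ± 0.24, SD, n = 2), a log2 difference of -0.28. The estimated fragments were 127, 146 and 103, and the interval of AAV-IL-27 (84.1 to 125) overlapped those of AAV-Ctrl 1 (106 to 151) and AAV-Ctrl 2 (123 to 172). Gp1bb was at 3.73, 4.48 and 2.71 FPKM, or 66% of the AAV-Ctrl mean (4.11 ± 0.53, SD, n = 2), a log2 difference of -0.46. The value of Gp1bb is uncertain, because 1902 of its 2087 exon bases are also exon bases of Sept5 on the same strand, 593 of them in the Sept5 transcript that the table lists. Sept5 was at 144.63, 158.24 and 158.94 FPKM, 36.9 times Gp1bb in AAV-Ctrl, and how the authors divided shared fragments is not given in the sources used here. Per length, Gp1ba was at 1.67 and 1.64 times Gp5 in the AAV-Ctrl libraries and at 10.9 times Gp5 in AAV-IL-27.

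Vwf, made by megakaryocytes and by endothelial cells, was at 1.15, 1.30 and 0.27 FPKM. Its mean of 0.907 FPKM over the 3 libraries is below 1, and it is outside the genes that could be called. The AAV-IL-27 value was 22% of the AAV-Ctrl mean (1.23 ± 0.106, SD, n = 2), with a log2 difference of -0.81, or of -2.14 with a pseudocount of 0.01. Because the transcript is long, at 8834 bases, these low values rest on an estimated 189, 216 and 44 fragments. The intervals were 163 to 218, 188 to 247 and 32 to 59.1, and that of AAV-IL-27 lay below both others, for counting error only.

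**Figure D2:**
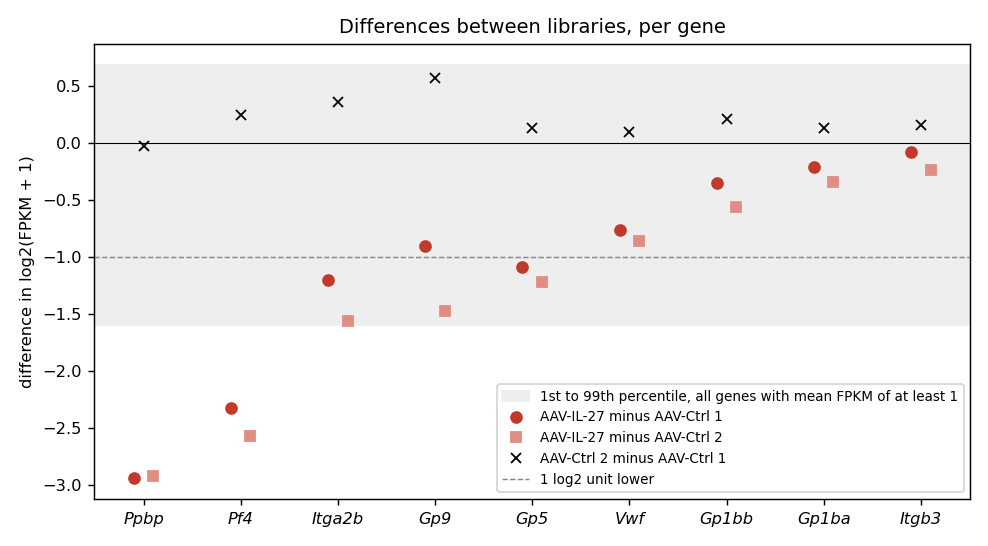
Difference in log2(FPKM + 1) between AAV-IL-27 and each AAV-Ctrl library (red circles and squares) and between the AAV-Ctrl libraries (crosses), for each of the 9 genes, 1 point per pair of libraries. Ppbp and Pf4 lie below the grey band, which runs from the 1st to the 99th percentile of the 9130 genes (-1.59 to 0.69), and Itgb3, Gp1ba and Gp1bb lie closest to 0.

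By the share of the AAV-Ctrl mean kept in AAV-IL-27, the 9 genes ran in the order Ppbp (10.2%), Gp5 (11.6%), Pf4 (11.9%), Vwf (22%), Itga2b (24%), Gp9 (29.7%), Gp1bb (66%), Gp1ba (76.1%) and Itgb3 (89.4%). The first 3 shares are close to each other, as are those of Vwf, Itga2b and Gp9, and with 1 AAV-IL-27 library neighbours in this order cannot be set apart. By mean level per length in the AAV-Ctrl libraries, Ppbp (29.4 FPKM) and Itgb3 (25.6) were the highest, with a gap wider than the SD of Itgb3, followed by Pf4 (12.8). Itga2b (4.38), Gp9 (4.28) and Gp1bb (4.11) came next, and their values overlapped. Gp1ba (2.72), Gp5 (1.65) and Vwf (1.23) were the lowest. Between the AAV-Ctrl libraries, 8 of the 9 genes were higher in AAV-Ctrl 2, Ppbp excepted, against 50.3% of the 9130 genes.

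The wider set of 78 genes linked to megakaryocytes and platelets, which excludes the 9 and was also listed with earlier results of these data known, was mixed. Of the 51 with a mean FPKM of at least 1, 10 were called lower (19.6%) and 0 higher, and their median difference was -0.13. All 10 calls were among genes of low level. Of 24 genes whose mean FPKM was 1 to 10, 10 were called lower, against 3.48% of all 4652 genes of that level. Of 27 genes whose mean FPKM was 10 or more, 0 were called lower, against 1.12% of all 4478 genes of that level. Many of the 27 are used by neutrophils as well as platelets.

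Among transcription factors, 4 of 9 with a mean FPKM of at least 1 were called lower, against 2.32% of the 9130 genes. Nothing is read from this count or those of the other roles, since the genes were listed with earlier results known. Gata1, the factor that megakaryocytes share with the red cell lineage, was at 3.83, 4.12 and 0.54 FPKM (log2 difference -1.69). Zfpm1, which encodes the GATA1 partner FOG1, was at 6.4, 6.67 and 0.83 FPKM (-2.04). Gfi1b (3.86, 3.59 and 0.85 FPKM, -1.35) and Tal1 (4.4, 4.36 and 1.4 FPKM, -1.16), both also needed for red cells, were lower too. Nfe2, which drives platelet release, was at 298.9, 307.18 and 303.71 FPKM (0.00). This is far above the level of the other 4, and which cells the Nfe2 RNA came from was not tested. The AAV-IL-27 values of the 4 lower factor genes were 12.7% to 32% of the AAV-Ctrl mean.

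Of 16 receptors, 6 reached a mean FPKM of 1 and 0 of these were called lower. Mpig6b, which encodes the inhibitory receptor G6b-B of platelets, was at 1.47 and 0.98 FPKM in AAV-Ctrl and listed at 0 in AAV-IL-27. The collagen receptor gene Gp6, at 0.72 and 0.95 FPKM in AAV-Ctrl, was also listed at 0 there and was singled out after its values were seen. The most abundant receptor genes were Fcer1g (1614.35, 1574.02 and 1634.95 FPKM), whose Fc receptor chain also signals for GPVI and is abundant in myeloid cells, and Clec1b (6.13, 5.8 and 4.84 FPKM), which encodes the podoplanin receptor CLEC-2. Their log2 differences were 0.04 and -0.25.

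Of 8 adhesion and surface genes that reached a mean FPKM of 1, 2 were called lower. Treml1, which encodes the alpha-granule receptor TLT-1, was at 1.69, 2.07 and 0.18 FPKM (-1.28). Cd36, a scavenger receptor of platelets that macrophages and other cells also carry, was at 3.04, 2.37 and 0.31 FPKM (-1.49). Cd9, a tetraspanin, was at 387.28, 405.45 and 454.6 FPKM (0.20), and Itgb1 at 13.33, 13.65 and 11.27 FPKM (-0.24). Of 9 genes for granule cargo and its storage, 0 were called lower. The highest were Srgn, the core of the proteoglycan that holds Pf4 in the granule (1088.57, 955.33 and 1243.8 FPKM, 0.29), and Nbeal2, which is needed to build alpha-granules (114.44, 122.94 and 130.74 FPKM, 0.14). Both are also expressed in neutrophils.

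Of 10 cytoskeleton genes, 3 were called lower. Tubb1, the tubulin of the platelet's marginal band, was at 4.24, 5.02 and 0.75 FPKM (-1.68). Myl9, a myosin light chain, was at 2.63, 2.4 and 0.26 FPKM (-1.48), and Parvb, which encodes beta-parvin, at 4.04, 4.8 and 1.03 FPKM (-1.41). The abundant Zyx (678.2, 694.88 and 645.38 FPKM, -0.09) and Myh9 (498.05, 531.81 and 533.49 FPKM, 0.05) were at similar levels in the 3 libraries. Of 5 signalling genes, 0 were called lower, with the protein kinase C substrate gene Plek at 209.52, 189.38 and 202.88 FPKM (0.03) and the kinase gene Syk at 149.67, 150.51 and 155.49 FPKM (0.05). Of 4 eicosanoid enzymes, Alox12, the platelet-type lipoxygenase, was called lower (2.68, 3.04 and 0.53 FPKM, -1.33). Ptgs1, the cyclooxygenase of the thromboxane pathway (25.32, 30.66 and 20.85 FPKM, -0.40), and Tbxas1, thromboxane synthase (19.19, 21.75 and 15.35 FPKM, -0.39), were the highest of the 4 and had smaller differences.

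**Figure D3:**
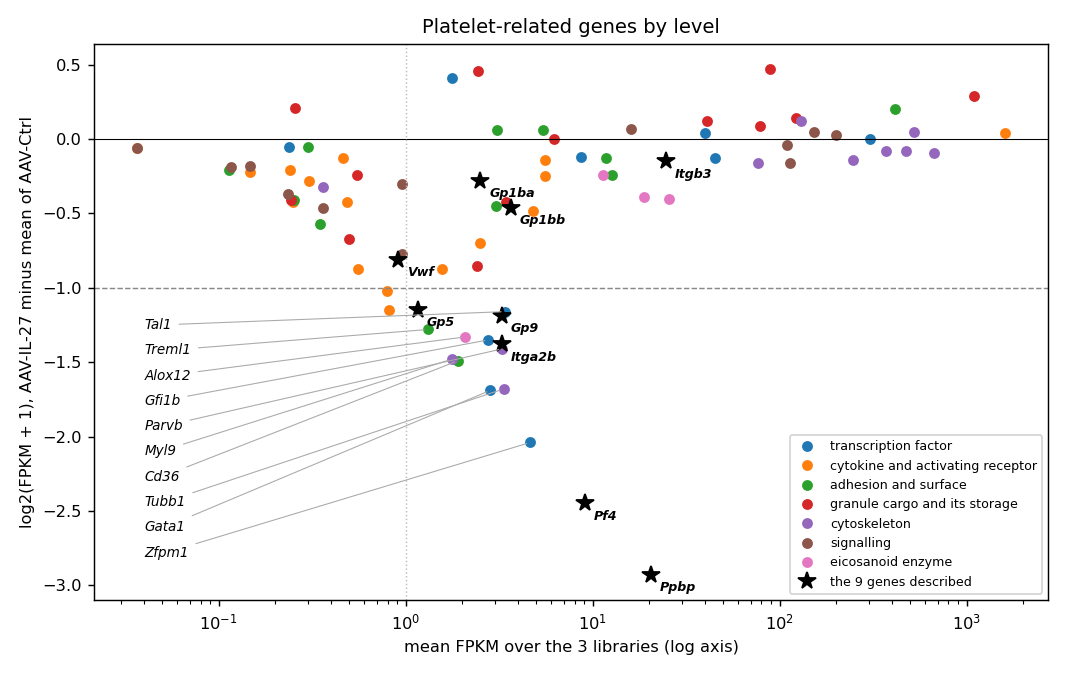
Log2 difference of AAV-IL-27 from AAV-Ctrl against the mean FPKM over the 3 libraries (log axis) for the 9 genes (stars) and 78 other platelet-related genes, coloured by role, 1 point per gene. The 10 other genes called lower are named and lie between 1 and 10 FPKM, while the 27 genes of at least 10 FPKM lie between -0.40 and 0.47 (dashed line, -1).

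Markers of erythroid cells, macrophages and B cells were also lower in AAV-IL-27, and their part in these differences was not tested. These lists too were chosen with earlier results known, and 2.32% of the 9130 genes were called lower. All 16 erythroid genes were called lower, with AAV-IL-27 values of 7.01% to 22.9% of the AAV-Ctrl mean. Their summed level was 20624, 13964 and 2370 FPKM, led by Hba-a1 (8135.7, 5547 and 957.72 FPKM) and Hbb-bs (6299.18, 4073.63 and 688.91 FPKM). The shares of Ppbp, Gp5, Pf4 and Vwf lie inside that range and those of Itga2b, Gp9, Gp1bb, Gp1ba and Itgb3 above it. Of 14 macrophage genes, 12 were called lower, Adgre1 and Slc40a1 excepted. The summed level of the 14 was 1005, 978.1 and 354.9 FPKM. By mean FPKM, Slc40a1 (167.99, 152.26 and 120.91 FPKM) and Hmox1 (207.37, 164.46 and 57.86 FPKM) were the highest. Of 10 B cell genes, 5 reached a mean FPKM of 1 and 4 of these were called lower, with sums of 30.65, 38.95 and 5.14 FPKM, mostly from Cd79a (9.78, 13.56 and 1.49 FPKM) and Cd79b (9.81, 11 and 1.81 FPKM).

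Endothelial cells also make Vwf. Of 14 endothelial genes, 4 reached a mean FPKM of 1 and 1, Stab2, was called lower (2.33, 1.97 and 0.41 FPKM). The others were Pecam1 (4.21, 4.04 and 4.25 FPKM), which platelets and leukocytes also carry, Stab1 (1.33, 1.85 and 2.11 FPKM) and Eng (1.26, 1.87 and 0.6 FPKM), all at higher levels than Vwf. Among the 10 genes below 1 FPKM, Cdh5 (0.22, 0.16 and 0.04 FPKM), Kdr (0.15, 0.2 and 0.02 FPKM) and Tek (0.01, 0.02 and 0.01 FPKM), which define endothelial cells, were singled out after their values were seen. The part of endothelial RNA in the Vwf values was not tested, and the sum over the list was 11.02, 11.9 and 8.11 FPKM. Of the 17 neutrophil genes, 0 were called lower or higher, with AAV-IL-27 values of 79.3% to 134% of the AAV-Ctrl mean. Of 8 mast cell and basophil genes, 5 reached a mean FPKM of 1 and 0 were called, with sums of 423.7, 478 and 437.3 FPKM, of which Hdc alone gave 405.96, 456.46 and 416.76.

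**Figure D4:**
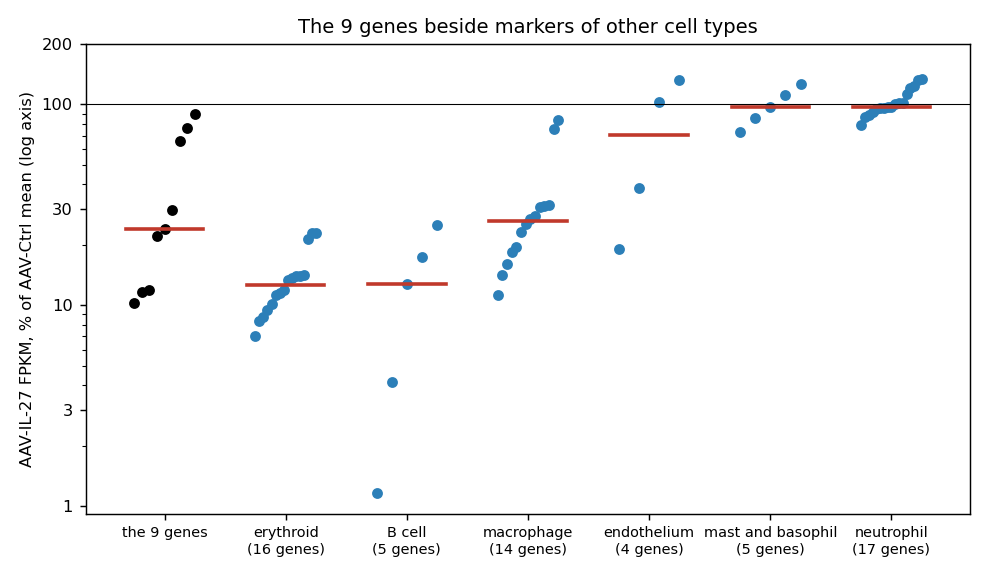
AAV-IL-27 FPKM as a percentage of the AAV-Ctrl mean (log axis) for the 9 genes and for the marker genes of 6 other cell types (mean FPKM of 1 or more), 1 point per gene, red bars at the median of the points. The 9 genes spread from 10.2% to 89.4%, while the 16 erythroid genes stay between 7.01% and 22.9% and the 17 neutrophil genes between 79.3% and 134%.

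Among 8462 other genes that had an official symbol and reached a mean FPKM of 1, those nearest in profile over the 3 libraries to the mean of 5 of the 9 genes, Pf4, Ppbp, Itga2b, Gp1bb and Gp9, were found by Euclidean distance on centred log2(FPKM + 1). Tubb1, the platelet tubulin given above, was the nearest at a distance of 0.0517. Next came Slc38a5, an amino acid transporter (3.13, 4.09 and 0.37 FPKM, distance 0.0549), and Tsc22d1 (4.15, 4.83 and 0.74 FPKM, distance 0.0698). Slc29a1, a nucleoside transporter (7.81, 9.68 and 1.85 FPKM, distance 0.071), and Kcnj10, a potassium channel (6.86, 8.02 and 1.78 FPKM, distance 0.0848), were the others. These neighbours rest on the choice of genes averaged, since 0 of the 5 remained among the nearest 5 without Gp1bb, and 0 remained with the 8 genes that reached a mean FPKM of 1.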

How the data were processed

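RNA-seq was analysed for 2 AAV-Ctrl libraries and 1 AAV-IL-27 library, grouped by the sample labels. Libraries were made from oligo-dT-selected mRNA with dUTP strand marking and read on a DNBSEQ instrument. The authors deposited FPKM values, with 2 decimals, for 16073 rows. The build is mm10 in the submitters' notes, and the aligner and counting tool are not given in the sources used here. The table has 1 further column of per-sample FPKM that matches no listed sample and was not used.

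A pseudocount of 1 was added before taking log2. Calls needed a mean FPKM of at least 1 and a gap of 1 log2 unit or more to each control. No test was run, since 1 library has no replicate error. The 9 genes, the lists of 78 other platelet genes, of CXC chemokines and of erythroid, B cell, macrophage, endothelial, mast cell and basophil, and neutrophil genes were chosen with earlier results of these data known. Named genes are the 9, listed genes called lower, the 2 highest per role, those at 0 in one library and above 1 FPKM in another, the 5 nearest profiles and leading markers. Some genes of these lists are not reported here.

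Depth was fitted so that low FPKM values of single-transcript genes fell within 0.2 of whole fragments (77.4% to 79.05% did), with 50 bases subtracted from each of 10934 transcript lengths, so fragment numbers are estimates. Intervals are exact Poisson at 95% and cover counting error only. The 10 alternatives were other pseudocounts, filters, thresholds and scalings, and leaving out either AAV-Ctrl library. Scripts ran in Python (3.11.15) with pandas (2.3.3) on numpy (2.4.6), intervals came from scipy (1.17.1) and plots from matplotlib (3.10.9). The depth fit and the calling rule were tested on simulated data with counting error only. Changes were set only in genes of higher level, so spread between mice and changes in weakly expressed genes were not covered.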

Additional observations from a re-analysis of the deposited data

How the results depend on the processing

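The log2 differences of the 9 genes were below 0 in all 54 recalculations (pseudocounts of 0.1 and 0.01, equal FPKM totals, median-ratio rescaling and leaving out either AAV-Ctrl library), and 19 shifted by over 1 SD of AAV-Ctrl. Since AAV-IL-27 was the lowest library for all 9, other pseudocounts or leaving out a control could not change the sign. Only the rescalings could, and every recalculation uses the same AAV-IL-27 library. Equal totals and median ratios shifted the all-gene median by 0.038 and 0.053. The count of 4 lower genes was 5, with Gp9 added, under both smaller pseudocounts, equal totals, a threshold of 0.5 and without AAV-Ctrl 1, and was 2 (Ppbp and Pf4) with a mean FPKM of at least 5, which 3 of the 9 genes reach, or a threshold of 2, for a range of 4 to 5 when an AAV-Ctrl library was left out. The median difference of the 9 genes (-1.15) was -1.84 and -2.03 with pseudocounts of 0.1 and 0.01, -2.45 over the 3 genes of at least 5 FPKM, -1.33 with equal totals and -1.21 to -0.90 without an AAV-Ctrl library.

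In the 78 other platelet genes, the 10 lower genes became 0 at a mean FPKM of at least 5 and 1 at a threshold of 2, and ranged from 10 to 11 without an AAV-Ctrl library. Their median (-0.13) was -0.21 without a filter, -0.02 at a mean FPKM of at least 5, -0.09 with equal totals, -0.08 with median ratios and -0.17 to -0.07 without an AAV-Ctrl library. Over all genes, the 212 lower genes became 396 and 425 with pseudocounts of 0.1 and 0.01, 93 at a mean FPKM of at least 5, 640 and 39 at thresholds of 0.5 and 2, and 243 to 294 without an AAV-Ctrl library. The 28 higher genes became 46 with a pseudocount of 0.01, 143 and 5 at those thresholds and 40 to 49 without an AAV-Ctrl library. In 2 alternatives chosen after seeing the data, averaging other members kept 0 of the 5 nearest profiles. Stricter or looser settings change these counts by construction. No paired analysis was run, since the labels number the libraries but give no pairing of mice between the groups. A single treated library gives no spread for that group, and the lowest values, such as the 8 fragments of Gp5, limit the precision.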
